A study of Mus musculus with 8 samples.

Results

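The core cardiac transcription factors described here are 10 genes, *Nkx2-5*, *Gata4*, *Gata5*, *Gata6*, *Mef2a*, *Mef2c*, *Mef2d*, *Hand1*, *Hand2* and *Isl1*, out of 53465 genes measured. They were taken by gene symbol, and all 10 had a row in the table and enough counts to be tested. Polyadenylated RNA of heart ventricles from mouse embryos at embryonic day (E) 9.5 was sequenced in 4 wild-type (WT) samples and in 4 samples of the genotype Nrg-1flox;Tie2-Cre, called KO. *Nrg1* encodes neuregulin 1, a ligand that endocardial cells present to the myocardium. Tie2-Cre recombines floxed alleles in endothelial cells, endocardium included, and also in blood lineages. For the controls the labels give WT alone and do not say whether they carried a floxed allele or Cre. Nor do they say whether a sample was a single embryo, a pool or from a separate litter, so that the p-values measure the spread between these samples.

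Cardiac transcription factors act together on shared enhancers of heart genes. NKX2-5 is a homeodomain factor of cardiac progenitors and cardiomyocytes. GATA4, GATA5 and GATA6 are zinc finger factors that bind GATA sites, and MEF2 factors are MADS-box proteins that bind AT-rich sites and turn on muscle genes. HAND1 and HAND2 are basic helix-loop-helix factors, of which *Hand1* is known for the left ventricle and *Hand2* for the right ventricle and outflow tract. ISL1 is a LIM-homeodomain factor of the second heart field, the progenitors that add cells to the right ventricle and outflow tract.

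Within each family the factors are close relatives, and so the coding sequences were compared before their counts were set against each other. The stretches below are the most similar 60 bases of the coding sequence in the families' pairs that the results turn on, 60 bases being the length of 1 read, with the bases that differ between both members in capitals. They come from GENCODE M21 transcripts on GRCm38, 5′ to 3′, and coding bases are counted from the start codon. In bases 355 to 414 of *Hand1* and 370 to 429 of *Hand2*, 3 bases differed. In bases 694 to 753 of *Gata4* and 631 to 690 of *Gata5*, 7 differed, and in bases 152 to 211 of *Mef2c* and *Mef2d*, 4 differed.
Hand1: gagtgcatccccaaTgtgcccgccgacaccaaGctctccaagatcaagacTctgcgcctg
Hand2: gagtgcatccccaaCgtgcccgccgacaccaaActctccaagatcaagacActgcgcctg
Gata4: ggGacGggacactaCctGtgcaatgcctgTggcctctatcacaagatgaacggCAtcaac
Gata5: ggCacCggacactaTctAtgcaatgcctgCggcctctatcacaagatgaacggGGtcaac
Mef2c: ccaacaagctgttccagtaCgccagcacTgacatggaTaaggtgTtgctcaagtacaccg
Mef2d: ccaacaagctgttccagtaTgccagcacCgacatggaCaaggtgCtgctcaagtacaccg

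Over the whole aligned coding sequence, identity was 70.2% for *Hand1* and *Hand2*, 69.2% for *Gata4* and *Gata5* and 66.9% for *Mef2c* and *Mef2d*. No stretch of 60 bases was shared by any 2 of the 10 genes, and a read without mismatch therefore belonged to a single family member. Among other genes, only *Mef2a* shared stretches on its own strand, 224 of 15010 or 1.49%. Transcripts of the opposite strand overlapped 5 of the genes. The shared part was 15.0% of the stretches of *Hand2* with *Hand2os1*, 7.60% of *Mef2d* with 1700113A16Rik, 4.44% of *Gata5* with *Gata5os*, 2.93% of *Mef2a* with *Lysmd4* and others, and 0.528% of *Gata6* with 1010001N08Rik. The use of strand in counting is not given in the sources used here, so reads of these overlaps cannot be assigned to a strand with certainty.

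Levels are given in CPM, counts scaled to a common library size. The samples held between 11852372 and 14360323 counts each. *Nrg1*, the deleted gene, had 61, 59, 71 and 72 counts in KO and 156, 131, 121 and 173 in WT (log2 fold change -1.07 ± 0.14, SE, edgeR's quasi-likelihood test, adjusted p = 0.00268). Cardiomyocyte markers summed to 36510 to 40410 CPM in KO and 39240 to 41240 in WT, and 0 of 12 passed edgeR's test in either direction (2 lower and 0 higher at an unadjusted p under 0.05). Erythroid markers stood apart, with all 9 tested higher in KO and a sum of 19800 to 68620 CPM against 6681 to 8080 in WT. Hemoglobin genes took 1.93% to 6.26% of the counts in KO and 0.671% to 0.799% in WT, and the highest share was in KO replicate 1. That sample was the lowest of all 8 for 6 of the 10 factors, and 9 of 12 cardiomyocyte markers were lowest in it among the KO samples (median log2 difference from the other KO samples -0.33). The values of the 10 factors, their ratios and the counts of the gene lists are therefore given with and without KO replicate 1, whose part in the results was not tested. Without it, 1 cardiomyocyte marker was higher and 1 lower. With all 8 samples, 3.5% of all genes tested were lower and 5.11% higher. Of the other marker lists, 1 of 10 endothelial genes was lower (*Tek*), with 5 lower and 0 higher at an unadjusted p under 0.05 and 9 of 10 below 0. *Fgf10*, *Sema3c*, *Wnt11* and *Rspo3*, 4 of 7 outflow and second heart field genes, were lower. Higher genes were 2 of 7 epicardial (4 at an unadjusted p under 0.05, summed 211.2 to 350.9 CPM in KO and 135.5 to 208.6 in WT) and 1 of 5 atrial and venous pole genes, *Tbx18* being in both lists. No neural crest and mesenchyme gene of 5 passed (2 lower at an unadjusted p under 0.05, summed 57.23 to 88.4 CPM in KO and 88.47 to 96.31 in WT), and no septum transversum or liver gene had the counts to be tested (summed 0.659 to 6.78 CPM). Without KO replicate 1, the counts were 2 endothelial genes lower, 9 erythroid and 3 epicardial genes higher, 4 outflow genes lower, 1 atrial gene higher and 1 neural crest gene lower. In that fit, 7.89% of all 14630 genes tested were lower and 9.35% higher.

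In WT ventricles the factors covered a wide range of levels. Per kb of annotated exon, *Nkx2-5* was highest at 131 ± 6.33 CPM per kb (SD, n = 4), followed by *Gata4* at 71.9 ± 1.08 and *Hand2* at 64.7 ± 3.68. *Hand1* stood at 45.4 ± 1.39, *Gata5* at 29.8 ± 1.07, *Mef2d* at 25.0 ± 0.937 and *Gata6* at 19.8 ± 0.205 CPM per kb. The lowest were *Mef2a* at 9.97 ± 0.307, *Mef2c* at 9.49 ± 0.612 and *Isl1*, the progenitor factor, at 1.65 ± 0.815 CPM per kb. *Mef2a* and *Mef2c* were the only neighbours in this order whose WT samples overlapped. The order of the middle of the list rested on the length used. With the longest transcript in place of all exons, *Gata6* moved to 34.1 CPM per kb, above *Gata5* at 29.8 and *Mef2d* at 27.7, while *Mef2a* and *Mef2c* rose to 26.4 and 23.8. In KO the order by mean was the same but for *Mef2d* (27.5 ± 1.49), which came before *Gata5* (19.9 ± 4.89).

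**Figure D1:**
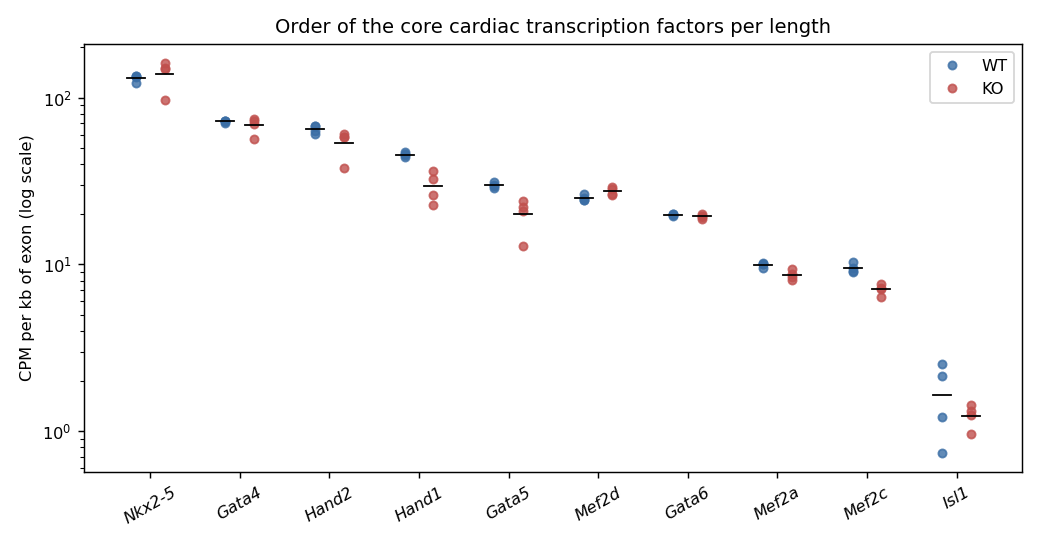
Level of each factor in CPM per kb of exon on a log axis, with 1 point per sample, WT in blue and KO in red and the group mean as a black line. *Nkx2-5* is the highest in both groups and *Isl1* the lowest, and in WT the samples of *Mef2a* and *Mef2c* overlap.

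Of the 10 factors, *Hand1*, *Gata5* and *Mef2c* were lower in KO, to 64.9%, 66.8% and 74.8% of the WT level, and none was higher. Among all 14451 genes tested, 3.5% were lower and 5.11% higher, or 8.62% in either direction. The remaining 7 factors did not pass the test, although *Mef2d* was higher at an unadjusted p of 0.0347, and DESeq2 and limma-voom called none higher either. In 5 factors, *Gata5*, *Mef2a*, *Mef2c*, *Hand1* and *Hand2*, every KO sample lay below every WT sample, which 9.45% of all genes tested did, and in none did every KO sample lie above, against 9.52% of all genes. The median log2 fold change of the 10 factors was -0.24, beside -0.0014 over all genes tested. In a bulk sample, fewer cells of a type and less RNA per cell cannot be told apart. Without KO replicate 1, *Gata5*, *Mef2a*, *Mef2c* and *Hand1* were lower and *Nkx2-5* was higher, where 7.89% of 14630 genes were lower and 9.35% higher.

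**Figure D2:**
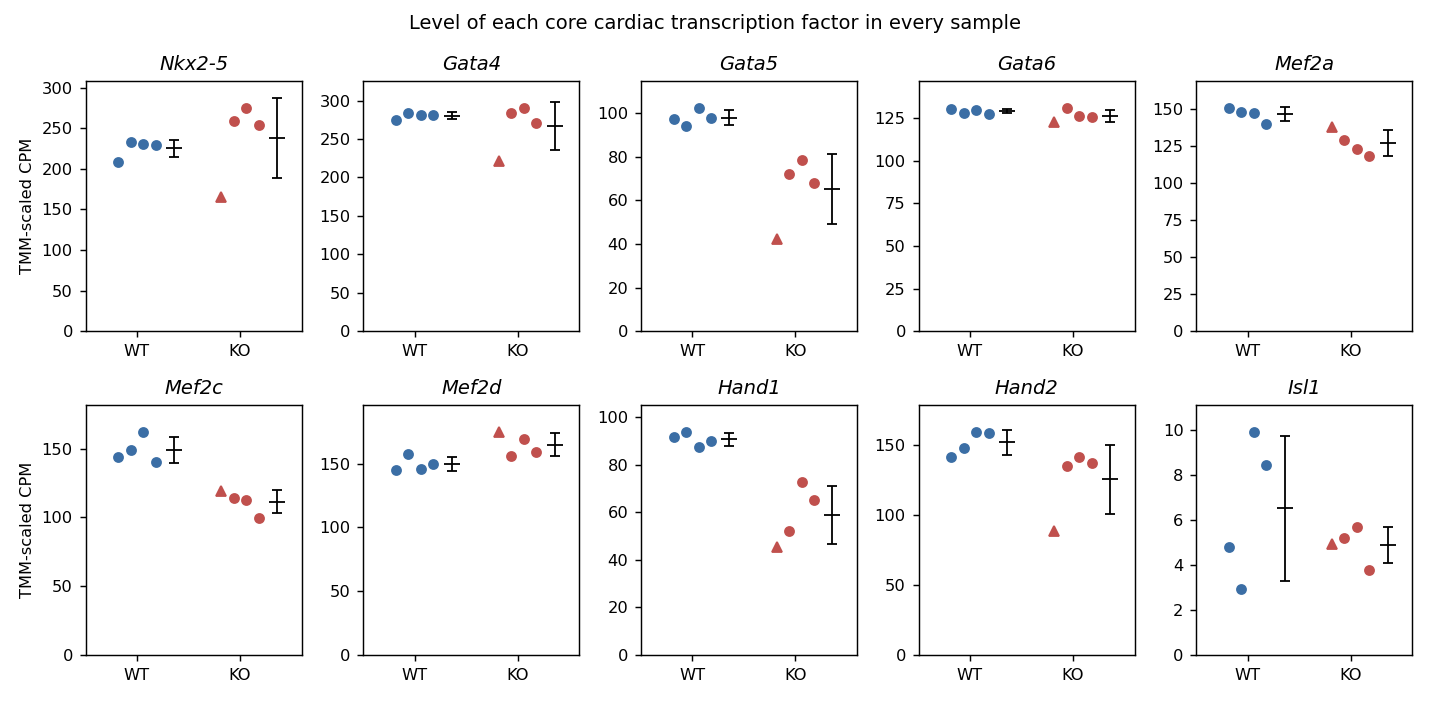
TMM-scaled CPM of each factor in every sample, from 0, with WT in blue and KO in red, KO replicate 1 as a triangle, and the mean ± SD of 4 samples in black at the right of each group. The KO samples of *Gata5*, *Mef2a*, *Mef2c*, *Hand1* and *Hand2* all lie below the WT samples, and the triangle is the lowest point of all samples for 6 of the 10 genes.

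The HAND factors were both below WT in every KO sample, *Hand1* by more than *Hand2*. *Hand1* (ENSMUSG00000037335, chromosome 11 from 57828705 to 57832818, minus strand) was at 45.5, 52.1, 72.7 and 65.0 CPM in KO replicates 1 to 4 and at 91.7, 93.9, 87.4 and 89.9 CPM in WT. The WT samples were close together, and the KO samples spread more widely but did not reach them. The log2 fold change of *Hand1* was -0.62 ± 0.13 (SE, 95% interval -0.91 to -0.34, edgeR's quasi-likelihood test, adjusted p = 0.0169), and -0.52 without KO replicate 1 (adjusted p = 0.00511). Without WT replicate 1, 2 or 4 the change was of like size and missed the threshold, with edgeR adjusted p of 0.0575, 0.0522 and 0.0520.

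*Hand2* (ENSMUSG00000038193, chromosome 8 from 57320983 to 57324633, plus strand) was at 88.5, 135, 142 and 137 CPM in KO and at 142, 148, 160 and 159 CPM in WT. KO replicate 1 lay far below the other KO samples, which came close to the lowest WT sample (141.8 CPM, against 141.6 in KO replicate 3). For *Hand2* the log2 fold change was -0.27 ± 0.13 (SE, 95% interval -0.57 to 0.02), and edgeR's quasi-likelihood test gave an adjusted p of 0.232. It was -0.14 without KO replicate 1 (edgeR adjusted p = 0.0996). *Hand2os1*, the transcript that overlaps *Hand2* on the opposite strand, had a log2 fold change of -0.25 (edgeR adjusted p = 0.263), between 351 and 610 counts in KO and 497 and 707 in WT.

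The GATA factors did not move alike. *Gata5* (ENSMUSG00000015627, chromosome 2 from 180325133 to 180334699, minus strand), which is known for the endocardium and early cardiac mesoderm, was at 42.1, 72.1, 78.7 and 68.1 CPM in KO and at 97.2, 93.9, 102 and 97.7 CPM in WT. All KO samples were below all WT samples, and KO replicate 1 was the lowest. Its log2 fold change was -0.58 ± 0.16 (SE, 95% interval -0.93 to -0.23), close to the threshold in edgeR's quasi-likelihood test (adjusted p = 0.0491). Without KO replicate 1 it was -0.42 with an edgeR adjusted p of 0.00146, whereas leaving out KO replicate 2 or 4 or any single WT sample took the adjusted p to between 0.0609 and 0.125. Endothelial markers, which share the endocardium with *Gata5*, summed to 1132 to 1198 CPM in KO and 1239 to 1348 in WT, and their part in the *Gata5* result was not tested. *Gata5os*, on the opposite strand, had between 8 and 21 counts per sample, too few to be tested.

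*Gata4* (ENSMUSG00000021944, chromosome 14 from 63198922 to 63271692, minus strand), a factor of cardiomyocytes, endocardium and epicardium, was at 221, 284, 291 and 271 CPM in KO and at 275, 284, 282 and 282 CPM in WT. KO replicates 1 and 4 were below the WT samples and the others within or above them. The log2 fold change was -0.07 ± 0.081 (SE, 95% interval -0.25 to 0.11, edgeR adjusted p = 0.630), and 0.0082 without KO replicate 1. *Gata6* (ENSMUSG00000005836, chromosome 18 from 11052064 to 11085635, plus strand), which shares roles in the myocardium and outflow tract with *Gata4*, was at 122, 131, 126 and 126 CPM in KO and at 130, 128, 130 and 128 CPM in WT. Its log2 fold change was -0.03 ± 0.048 (SE, 95% interval -0.14 to 0.077, edgeR adjusted p = 0.750), the narrowest interval of the 10 genes, and it was -0.01 without KO replicate 1 and 0.0093 when samples were scaled to cardiomyocyte markers. The antisense neighbour 1010001N08Rik was lower in KO (log2 fold change -0.48, edgeR adjusted p = 0.0405).

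The MEF2 factors were lower for *Mef2c*, below WT without passing the test for *Mef2a*, and above WT in the mean for *Mef2d*. *Mef2c* (ENSMUSG00000005583, chromosome 13 from 83504034 to 83667080, plus strand, 31 annotated transcripts), the MEF2 gene of the early myocardium, second heart field and endothelium, was at 119, 114, 112 and 99.9 CPM in KO and at 144, 149, 162 and 141 CPM in WT. The groups did not overlap, and KO replicate 1 was here the highest of the KO samples. Its log2 fold change was -0.42 ± 0.071 (SE, 95% interval -0.58 to -0.26, edgeR adjusted p = 0.00718), and -0.45 without KO replicate 1 (adjusted p = 0.00173). *Mef2c* was the only factor called by edgeR with any single sample left out, with adjusted p of at most 0.0273. Outflow and second heart field markers, a territory where *Mef2c* is active, summed to 88.35 to 115.7 CPM in KO and 138.9 to 146.3 in WT, and the part of this and of the endothelial sum in the *Mef2c* result was not tested.

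*Mef2a* (ENSMUSG00000030557, chromosome 7 from 67231163 to 67372858, minus strand, 12 transcripts), a widely expressed family member, was at 138, 129, 123 and 118 CPM in KO and at 151, 147, 147 and 140 CPM in WT. The highest KO sample was just under the lowest WT sample. For *Mef2a* the log2 fold change was -0.21 ± 0.061 (SE, 95% interval -0.34 to -0.07), and the gene missed the threshold in edgeR's quasi-likelihood test (adjusted p = 0.0662) but passed it without KO replicate 1 (-0.25, adjusted p = 0.00762). *Mef2d* (ENSMUSG00000001419, chromosome 3 from 88142372 to 88172086, plus strand), also widely expressed, was at 175, 156, 169 and 159 CPM in KO and at 145, 157, 146 and 150 CPM in WT. KO replicate 2 lay within the WT range and the others above it. Its log2 fold change was 0.14 ± 0.057 (SE, 95% interval 0.012 to 0.27, edgeR adjusted p = 0.163), and 0.11 without KO replicate 1.

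*Nkx2-5* (ENSMUSG00000015579, chromosome 17 from 26838664 to 26845009, minus strand) gave a different call with and without KO replicate 1. It was at 166, 259, 275 and 254 CPM in KO and at 209, 233, 231 and 229 CPM in WT. KO replicate 1 was below every WT sample, and the other KO samples were above every WT sample. Over all samples the log2 fold change was 0.083 ± 0.14 (SE, 95% interval -0.22 to 0.39, edgeR adjusted p = 0.750). Without KO replicate 1 it was 0.22 ± 0.050 (SE), and edgeR's quasi-likelihood test called it higher (adjusted p = 0.0149).

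*Isl1* (ENSMUSG00000042258, chromosome 13 from 116298281 to 116309689, minus strand) had the fewest counts of the 10 genes, with 58, 72, 79 and 46 counts in KO and 63, 41, 121 and 125 counts in WT. In CPM these were 4.92, 5.21, 5.68 and 3.79 in KO and 4.81, 2.94, 9.94 and 8.45 in WT. WT replicates 3 and 4 were high and WT replicates 1 and 2 low, and all KO samples lay within the WT range. Its log2 fold change was -0.41 ± 0.33 (SE, 95% interval -1.16 to 0.34, edgeR adjusted p = 0.491), and the width of the interval leaves its direction unresolved. It was again -0.41 without KO replicate 1 (edgeR adjusted p = 0.481), but -0.65 without WT replicate 2, -0.14 without WT replicate 3 and -0.26 without WT replicate 4.

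**Figure D3:**
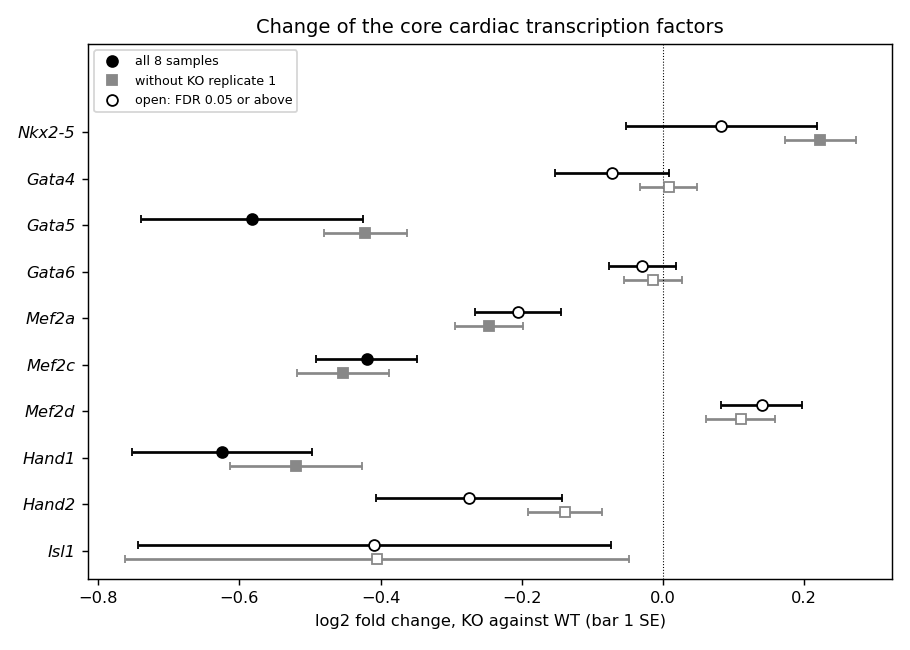
Log2 fold change of each factor in KO against WT, with bars of 1 SE, for all 8 samples (black circles) and without KO replicate 1 (grey squares), filled where edgeR's adjusted p was under 0.05. *Gata5*, *Mef2c* and *Hand1* are filled in both, and *Nkx2-5* and *Mef2a* are filled without KO replicate 1.

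Sets of paralogs can be compared inside each sample, where library scaling cancels. For 5 pairs the log2 ratio of counts was computed per sample. Groups were compared by exact permutation of the genotype labels (two-sided, 70 arrangements, lowest possible p = 0.0286), with adjustment over the 5 pairs. The pairs share genes and are not independent. The ratio of left-ventricular *Hand1* to *Hand2* was -0.96, -1.38, -0.96 and -1.08 in KO and -0.63, -0.66, -0.87 and -0.82 in WT. It was lower in every KO sample, with means of -1.09 ± 0.20 and -0.74 ± 0.12 (SD, exact permutation p = 0.0286, adjusted 0.0357), or 0.469 counts of *Hand1* per count of *Hand2* in KO against 0.597 in WT. The ratio of *Gata4* to *Gata5* was 2.39, 1.98, 1.88 and 1.99 in KO and 1.50, 1.60, 1.46 and 1.53 in WT, higher by 0.54 with no overlap (exact permutation p = 0.0286, adjusted 0.0357). The ratio of *Mef2c* to *Mef2d* fell by 0.56 (-0.57 ± 0.09 in KO and -0.01 ± 0.11 in WT) and that of *Mef2c* to *Mef2a* by 0.21 (-0.19 ± 0.05 and 0.03 ± 0.09), both without overlap and with the same exact permutation p. The ratio of *Gata4* to *Gata6* overlapped between groups, with a difference of -0.05 (exact permutation p = 0.771). It ran from 0.85 in KO replicate 1 to 1.20 in KO replicate 3, and from 1.07 to 1.15 in WT. Without KO replicate 1 the differences were -0.39 for *Hand1* to *Hand2*, 0.43 for *Gata4* to *Gata5* and -0.56 for *Mef2c* to *Mef2d* (adjusted exact permutation p = 0.0476), -0.21 for *Mef2c* to *Mef2a* (0.0714) and 0.022 for *Gata4* to *Gata6*. *Hand1* to *Hand2* missed the threshold without KO replicate 2 (-0.26) and without WT replicate 1 (-0.31), and *Mef2c* to *Mef2a* also without KO replicate 4 (-0.20), each with an adjusted exact permutation p of 0.0714.

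**Figure D4:**
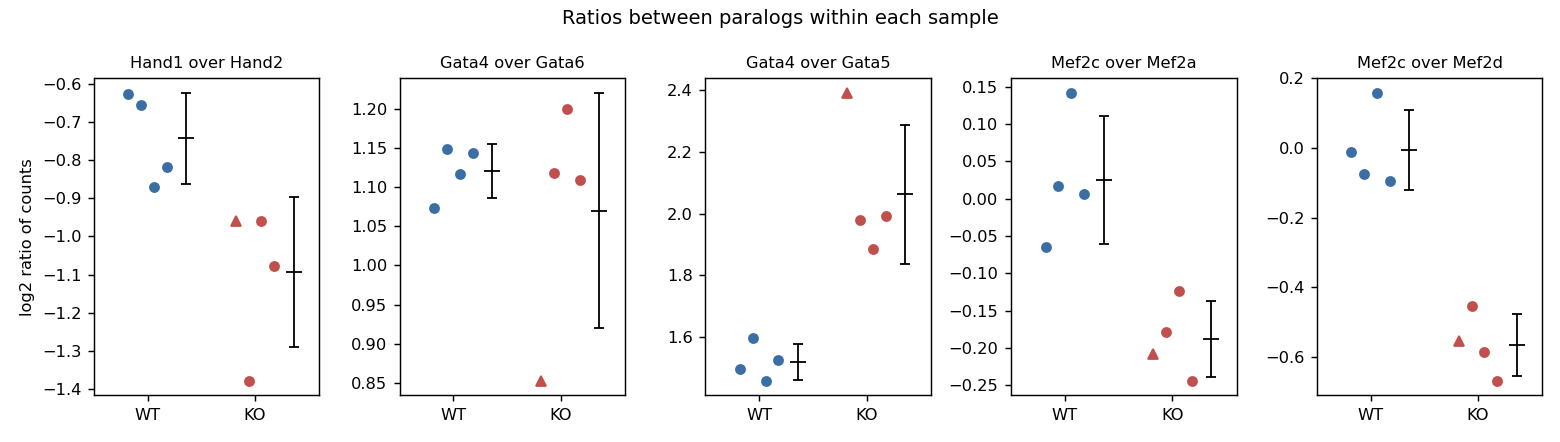
Log2 ratio of counts between paralogs in each sample, WT in blue and KO in red, KO replicate 1 as a triangle, and the mean ± SD of 4 samples in black, each panel with its own axis. The groups do not overlap for *Hand1* over *Hand2*, *Gata4* over *Gata5*, *Mef2c* over *Mef2a* and *Mef2c* over *Mef2d*, and overlap for *Gata4* over *Gata6*.

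Windows around the starts of *Gata5* and *Mef2c* are shown because both genes were lower in KO. *Hand1* had no entry. RefSeq windows of 250 bases before and 50 after the start (GRCm38.p6) were matched by symbol for 7 of the 10 genes, in 9 windows. Both strands were searched. Letters AGATAA stood for the binding motif of zinc finger factors, here called the GATA motif, and 11.2% of 32851 promoters held it. Letters CAAGTG stood for the NKX2-5 motif, which is also an E-box, and 13.6% held it. Letters CANNTG stood for the E-box, the motif of HAND factors, and 72.3% held it, while 3.19% held the MEF2 consensus. *Gata5* at chr2:180334630-180334929, minus strand, held 1 E-box and no other match. Of 3 windows of *Mef2c*, the most upstream, at chr13:83503784-83504083, plus strand, is printed and held 1 NKX2-5 motif, in capitals, among 2 E-boxes.
Gata5: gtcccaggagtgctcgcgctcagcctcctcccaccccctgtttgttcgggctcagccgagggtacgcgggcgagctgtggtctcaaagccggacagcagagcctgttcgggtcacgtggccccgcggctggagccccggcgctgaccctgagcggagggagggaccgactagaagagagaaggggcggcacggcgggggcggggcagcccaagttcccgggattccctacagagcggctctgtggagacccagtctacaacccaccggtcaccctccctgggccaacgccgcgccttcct
Mef2c: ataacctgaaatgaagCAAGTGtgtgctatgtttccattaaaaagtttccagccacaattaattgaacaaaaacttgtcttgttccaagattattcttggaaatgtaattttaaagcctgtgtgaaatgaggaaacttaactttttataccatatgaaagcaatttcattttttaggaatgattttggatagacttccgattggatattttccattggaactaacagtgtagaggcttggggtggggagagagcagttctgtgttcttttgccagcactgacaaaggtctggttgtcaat

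Of the other windows of *Mef2c*, 1 held an E-box alone and 1 held no match. In the windows of the remaining genes, the GATA motif was found in *Hand2* and *Isl1*, the NKX2-5 motif in *Hand2* and the MEF2 consensus in *Mef2a*. E-boxes numbered 2 in *Hand2*, 1 in *Isl1* and 1 in *Nkx2-5*. A match describes the letters and is neither a site in use nor a cause.

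The partner factors, further family members and targets of the 10 genes, and genes of the left ventricle, were counted from lists. The lists were chosen with earlier results of these data known, so their shares are description only. They held 71 other genes, of which 65 were tested, and 11 were lower and 4 higher, beside 3.5% and 5.11% of all genes tested. Their median log2 fold change was -0.08. Of 24 partner factors and cofactors 4 were lower and 2 higher. The lower ones included *Tbx20*, a T-box factor that works with NKX2-5 and GATA4, at 268 to 324 CPM in KO and 370 to 386 in WT (log2 fold change -0.31, edgeR adjusted p = 0.0165), and *Hopx*, a homeodomain-only cofactor (-0.44, edgeR adjusted p = 0.0404). *Myocd*, the coactivator of SRF, and *Smyd1*, a muscle methyltransferase, were also lower (-0.32 and -0.33, edgeR adjusted p = 0.0357 and 0.0401). The higher ones were *Zfpm1*, known as a partner of GATA1 in blood cells, at 139 to 222 CPM in KO and 89.8 to 104 in WT (1.01, edgeR adjusted p = 0.00282), and *Ldb1*, a LIM-domain binding protein (0.55, edgeR adjusted p = 0.00224).

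Among 7 tested members of the same families, 1 was higher and 0 lower by edgeR's quasi-likelihood test, with 0 lower at an unadjusted p under 0.05 as well. The most abundant in WT, *Twist1*, did not pass (log2 fold change -0.23, edgeR adjusted p = 0.304). *Gata1*, the erythroid GATA factor, rose from 8.33 to 9.37 CPM in WT to 22.3 to 58.7 CPM in KO (log2 fold change 2.26, edgeR adjusted p = 0.00177). The erythroid markers given above moved in the same samples, and their part in the rise of *Gata1*, *Zfpm1* and *Ldb1* was not tested.

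The target lists were lower in part. Of 13 described GATA targets, 3 were lower, namely *Ccnd2*, a cell cycle cyclin, at 516 to 756 CPM in KO and 942 to 983 in WT (log2 fold change -0.53, edgeR adjusted p = 0.0122), *Sema3c* (-0.44, 0.00414) and *Wnt11* (-0.44, 0.0391). *Nppb*, which encodes brain natriuretic peptide, was higher at 160 to 319 CPM against 94.8 to 129 (0.94, edgeR adjusted p = 0.0218), and the most abundant was *Myh6*, a cardiac myosin heavy chain (-0.25, edgeR adjusted p = 0.0796). Of 11 NKX2-5 targets 2 were lower, *Hopx* and *Id2* (-0.52, edgeR adjusted p = 0.0435), and none higher. The most abundant of them, *Actc1* and *Myl2*, did not pass (0.09 and 0.08, edgeR adjusted p = 0.496 and 0.767). Of 13 MEF2 targets tested 2 were lower, *Smyd1* and *Bmp10*, a trabecular growth factor (-0.57, edgeR adjusted p = 0.0159). There the most abundant, *Myom1* and *Des*, did not pass (-0.07 and -0.03, edgeR adjusted p = 0.370 and 0.862). Of 7 ISL1 targets tested 4 were lower, with *Fgf10*, a second heart field ligand, at 1.98 to 3.98 CPM in KO and 5.96 to 7.71 in WT (-1.07, edgeR adjusted p = 0.0148) beside *Tbx20*, *Myocd* and *Smyd1*.

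Medians of log2 fold change were -0.01 for partners, -0.22 for family members, -0.21 for GATA targets, -0.12 for NKX2-5 targets, -0.07 for MEF2 targets and -0.32 for ISL1 targets. The left ventricle list of 5 genes had 2 lower, *Hand1* and *Cited1* (-0.46, edgeR adjusted p = 0.0453), with a median of -0.36. Its other genes were *Tbx5* (-0.27, edgeR adjusted p = 0.125), *Gja5* (-0.36, 0.377) and *Pln* (-0.13, 0.722). *Gja5* was at 39.8 CPM in KO replicate 1, 78.0 to 90.6 in the other KO samples and 75.6 to 116 in WT. *Hand1* is itself among the 10 factors. *Tbx20*, *Myocd*, *Smyd1* and *Hopx* each stand in more than a single list, and *Fgf10*, *Sema3c* and *Wnt11* are also 3 of the 4 lower outflow and second heart field markers. These markers summed to 88.35 to 115.7 CPM in KO and 138.9 to 146.3 in WT, and their part in the target counts was not tested.

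Of these 15 calls, 10 were lost in at least 1 fit when samples were left out. With each of the 8 samples left out in turn, *Zfpm1*, *Ldb1*, *Gata1*, *Ccnd2* and *Sema3c* passed edgeR's test in all 8 fits. *Fgf10* passed in 7 (not without WT replicate 4, adjusted p = 0.0542), *Tbx20* in 5 (not without WT replicate 1, 3 or 4, up to 0.0591), *Nppb* in 5 (not without WT replicate 1, 2 or 4, up to 0.0762) and *Bmp10* in 4 (not without KO replicate 4 or WT replicate 1, 2 or 3, up to 0.0579). *Myocd* passed in 3 fits, and missed without KO replicate 4 or any single WT sample (up to 0.108). *Smyd1*, *Hopx*, *Wnt11* and *Id2* passed in 2 fits each and *Cited1* in 1, with edgeR adjusted p of up to 0.108, 0.129, 0.116, 0.126 and 0.136. Across the 8 fits the log2 fold change kept its sign for each of these 10 genes. It ran from -0.34 to -0.26 for *Tbx20*, -0.36 to -0.28 for *Myocd*, -0.37 to -0.24 for *Smyd1*, -0.51 to -0.34 for *Hopx*, -0.56 to -0.36 for *Wnt11* and -0.60 to -0.38 for *Id2*. For *Bmp10* it ran from -0.68 to -0.52, for *Cited1* from -0.53 to -0.36, for *Fgf10* from -1.16 to -0.89 and for *Nppb* from 0.69 to 1.06. All 15 genes passed without KO replicate 1, where *Nppb* was at 0.69. In that fit 13 of the other genes were lower and 11 higher, beside 7.89% lower and 9.35% higher of all 14630 genes tested. By list, 5 were then lower and 6 higher of 24 partners, 0 and 2 of 7 family members, and 4 and 1 of 13 GATA targets. Lower and higher were 3 and 1 of 11 NKX2-5 targets and 2 and 1 of 13 MEF2 targets. For ISL1 targets it was 4 and 0 of 7, and for the left ventricle 2 and 0 of 5. The medians were then -0.02 for partners, -0.11 for family members, -0.20 for GATA targets, -0.08 for NKX2-5 targets, -0.09 for MEF2 targets, -0.26 for ISL1 targets and -0.22 for the left ventricle.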

How the data were processed

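The authors deposited expected counts per gene, estimated with RSEM 1.3.1 after cutadapt trimming on GRCm38, per the labels, from single reads of 60 bases of 8 samples. Aligner and strand use are not given in the sources used here. Expected counts were rounded to whole numbers and symbols were given to 53274 of 53465 genes. KO was compared with WT in edgeR 4.0.16 (R 4.3.3) with TMM scaling, filterByExpr, which kept 14451 genes, the quasi-likelihood test with p-values adjusted after Benjamini and Hochberg over the whole table of tested genes (threshold 0.05). CPM values are TMM-scaled, and an SE is derived from the F statistic. Paralog ratios used a pseudocount of 0.5 counts. Alternatives comprised upper-quartile and cardiomyocyte marker scaling, other count filters, leaving erythroid and mitochondrial genes out, a block for replicate number, each sample left out in turn, DESeq2 1.42.0 and voom in limma 3.58.1. On simulated counts for the KO against WT comparison (14451 genes, 200 changed) edgeR recovered 71% of changes of 2-fold and 95% of 4-fold, with 11 false calls. Replicates of a group differed by more than counting noise (smallest ratio of chi-square to its degrees of freedom, 3.75), and each sample was counted once.

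The genes named are the 10 factors, *Nrg1*, up to 6 genes of each list that passed the threshold, ordered by the size of the log2 fold change, with the most abundant of the list where fewer than 6 passed, and marker genes beside a result. Further genes (*Tbx5*, *Gja5* and *Pln*, which complete the left ventricle list, and all genes of the closing observations) were named after their values were seen. The members and lists were chosen with earlier results of these data known.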

Additional observations from a re-analysis of the deposited data

Results flagged for a closer look

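In 62 groups of 4 samples, the 10 factors and the named genes were checked for a sample apart from the others, by the gap to the nearest sample divided by the range of the group, on log2(CPM + 0.5) and on log2 ratios (against the critical value of Dixon). By chance about 1 in 20 groups passes, or 3.1 of 62, and 5 passed. KO replicate 1 was lowest for *Nkx2-5* (0.84), *Hand2* (0.906) and *Smyd1* (0.84). In WT, replicate 1 was lowest for *Nkx2-5* (0.851) and replicate 4 for *Bmp10* (0.916). On CPM without the log, a scale added after the data were seen, *Nkx2-5* in KO (0.804) and *Smyd1* in KO (0.821) no longer passed, while *Hand2* in KO (0.885) and *Nkx2-5* (0.844) and *Bmp10* (0.906) in WT did. KO replicate 1 thus made 3 of the 5 on the log2 scale and 1 of these on CPM.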

How the results depend on the processing

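*Mef2c* and *Hand1* passed the threshold in all 8 settings other than leaving out a sample, and *Gata5* in 7 of 8. *Mef2a* passed with upper-quartile scaling (log2 fold change -0.22, adjusted p = 0.0461) and in DESeq2 (-0.20, adjusted p = 0.0242). With cardiomyocyte marker scaling *Gata6* turned to 0.0093 and 330 genes were lower. *Hand2*, *Gata4*, *Mef2d*, *Isl1* and *Gata6* passed in no setting run. Same-numbered samples did not vary together (correlations -0.020, -0.11, -0.048 and 0.031), and the labels name no pairing. With a replicate block, 616 genes passed, 398 higher and 218 lower, 6 other program genes were lower, and *Gata5* was at -0.62 (edgeR adjusted p = 0.0634). With the block the calls of *Hopx*, *Wnt11*, *Id2*, *Fgf10* and *Cited1* were lost (edgeR adjusted p = 0.102, 0.0723, 0.0800, 0.0551 and 0.122) at log2 fold changes of -0.45, -0.45, -0.54, -1.09 and -0.45, and with cardiomyocyte marker scaling that of *Myocd* (-0.28, 0.0532). Paired by number, the log2 ratios, whose mean differences pairing cannot change (-0.35, 0.54, -0.21 and -0.56 for *Hand1* over *Hand2*, *Gata4* over *Gata5*, *Mef2c* over *Mef2a* and *Mef2c* over *Mef2d*), had an adjusted exact permutation p of 0.156, in a test whose smallest p is 0.125. The cause of these differences was not tested.

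With each sample left out in turn, the genes that passed numbered 509 to 2523 (335 to 1368 higher, 174 to 1155 lower), highest without KO replicate 1 and lowest without WT replicate 1. Of the 10 factors, 1 to 5 passed, 1 to 4 of them lower. Other program genes were higher in 3 to 11 and lower in 3 to 13. The log2 fold change ran from 0.0067 to 0.22 for *Nkx2-5*, -0.12 to 0.0082 for *Gata4*, -0.68 to -0.42 for *Gata5*, -0.25 to -0.17 for *Mef2a*, -0.45 to -0.37 for *Mef2c*, -0.74 to -0.52 for *Hand1*, -0.34 to -0.14 for *Hand2* and -0.65 to -0.14 for *Isl1*. Ratios ran from -0.39 to -0.26 for *Hand1* over *Hand2*, -0.094 to 0.022 for *Gata4* over *Gata6* and -0.24 to -0.17 for *Mef2c* over *Mef2a*. In 4 of these fits, without KO replicate 1, 2 or 4 or WT replicate 1, *Hand1* over *Hand2* or *Mef2c* over *Mef2a* missed the threshold (adjusted exact permutation p = 0.0714). *Isl1* had 41 to 125 counts per sample.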

Other observations

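Class IIa histone deacetylases are repressors that bind MEF2 factors, and they, like the other genes of this paragraph, were picked from the cofactor list after their values were seen. *Hdac7* was above WT in every KO sample, at 43.1 to 53.4 CPM in KO and 40.2 to 42.3 in WT, without passing the test (log2 fold change 0.21, edgeR adjusted p = 0.0998). *Hdac4*, *Hdac5* and *Hdac9* overlapped between groups (-0.01, 0.09 and -0.03, edgeR adjusted p = 0.961, 0.382 and 0.821). The E-proteins *Tcf3*, *Tcf4* and *Tcf12*, which pair with HAND factors, overlapped too (0.21, -0.0097 and -0.09, edgeR adjusted p = 0.263, 0.970 and 0.349). *Hey2*, a repressor of the compact myocardium, was above WT in every KO sample (76.2 to 108 CPM against 68.1 to 74.7, log2 fold change 0.28, edgeR adjusted p = 0.126). KO replicate 1 was the highest, and the other KO samples were at 76.2 to 83.6 CPM. *Irx4*, a ventricular factor, was below WT in every KO sample (44.7 to 82.5 against 85.5 to 94.3 CPM, -0.42, edgeR adjusted p = 0.149). KO replicate 1 was its lowest, and the other KO samples were at 60.8 to 82.5 CPM. Among all genes tested, every KO sample lay above every WT sample in 9.52% and below in 9.45%. In the cofactor list this was so for 4 and 6 of 24 genes.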
